A study of Mus musculus with 24 samples.

Results

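The 9 genes described here encode NRF2 itself, its relative NRF1, the small Maf proteins that both bind, the repressor BACH1 and the machinery that removes NRF2 protein. They were chosen by symbol, as Nfe2l2, Nfe2l1, Keap1, Bach1, Mafg, Mafk, Maff, Cul3 and Sqstm1, out of 15160 genes with read counts from mouse liver. All 9 were in the table and all 9 passed the filter on low counts. NRF2, encoded by Nfe2l2, is a transcription factor that raises genes for glutathione synthesis and detoxification. In unstressed cells KEAP1 holds NRF2 and presents it to a ubiquitin ligase built on CUL3, so NRF2 is controlled mostly as a protein, and p62 (Sqstm1) can pull KEAP1 away. In the nucleus NRF2 pairs with MAFG, MAFK or MAFF on antioxidant response elements, where BACH1 paired with the same small Mafs represses.

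The samples were livers of 24 male mice 5 months old, 6 in each of 4 groups, taken after a 4 h fast. WT mice were Nfe2l2 fl/fl and carried the floxed allele without Cre. NRF2 KO mice were Nfe2l2 fl/(Alb), in which Cre under the albumin promoter removes part of exon 5 in hepatocytes and is not directed at Kupffer, stellate or endothelial cells. From 8 weeks of age, mice of each genotype ate for 8 weeks a diet of elemental amino acids whose methionine content was 0.86% in Con and 0.17% in MR. In the study's 8-week experiment, calorimetry and a return to home cages followed before livers were taken. Whole liver was sequenced from the 3′ ends of transcripts, 1 library per mouse, so fewer cells of a type and less RNA per cell cannot be told apart.

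The mice labelled WT_CON_7604 and WT_MR_7612, which the study removed, were left out, leaving 5 mice in each WT group and 6 in each NRF2 KO group. The 22 libraries held between 6197291 and 22068338 counts. Each of the 12 hepatocyte markers listed was detected, with a mean log2 level between 10.84 and 11.25 in every mouse. The library labelled WT_CON_7607 stood apart from the other WT Con libraries. Its Nfe2l2, Mafg and Mafk levels lay outside the range of the other 4 and within or next to that of NRF2 KO Con. The mean log2 level of 33 listed NRF2 target genes was 5.33 in that library, against 5.69 to 6.23 in the other WT Con livers and 5.03 to 5.20 in NRF2 KO Con. Its clock score, the first principal component of 16 circadian clock genes, was −4.07, within the range of WT Con and outside that of NRF2 KO Con. Its Nfe2l2, Mafg and Mafk levels thus go against its genotype label and its clock score does not, and whether the label is right was not tested. Where leaving it out changed a call of a member or a list, both values are given.

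MR raised the small Maf gene Mafg in both genotypes and raised Bach1 and Maff in NRF2 KO mice. NRF2 KO livers had more Nfe2l2 3′ reads than WT livers on both diets and less Mafk on Con. Keap1 and Cul3 passed the test in no comparison. Levels are CPM, counts scaled to library sizes adjusted by edgeR's TMM factors, and not to library size alone. Differences are log2 fold changes from 1 model of the 22 mice. Genes with a p under 0.05 after Benjamini-Hochberg adjustment over all 13336 genes tested count as called. For MR in WT mice 1 of the 9 genes was called, Mafg, beside 13.8% of all genes tested, and 6.91% of all genes were called higher. For MR in NRF2 KO mice 3 of the 9 were called, all higher, beside 12.6% of all genes called and 6.23% called higher. For NRF2 KO against WT on Con 2 of the 9 were called, beside 2.07% of all genes. Nfe2l2 was the one higher, as were 0.802% of all genes, and Mafk the one lower, as were 1.27%. For NRF2 KO against WT on MR 1 of the 9 was called, Nfe2l2, beside 1.93% of all genes called and 0.555% called higher. Each group enters more than 1 of these comparisons, so they are not independent of each other.

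**Figure D1:**
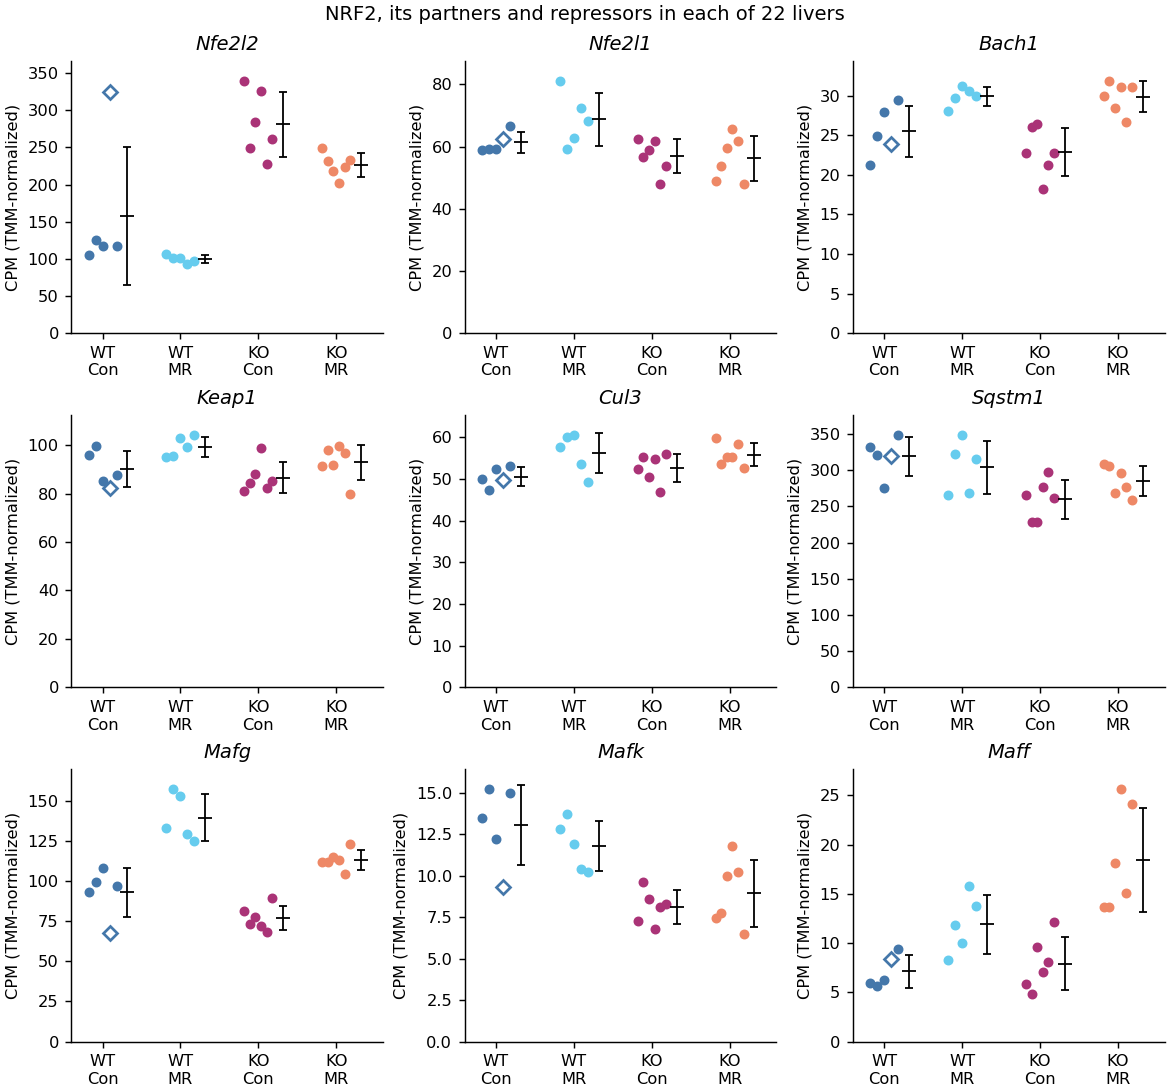
Level of each of the 9 genes in 22 livers, in CPM on linear axes that start at 0. Each point is a mouse, the bar beside each group is the mean with 1 SD (n = 5, 5, 6 and 6), and the open diamond is the library labelled WT_CON_7607. The diamond lies at 324 CPM for Nfe2l2, among the NRF2 KO Con points, and the Mafg points of MR lie above those of Con within each genotype.

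Nfe2l2 (ENSMUSG00000015839) lies on the minus strand at chr2:75675513-75704641 of GRCm38, and its last exon, exon 5, spans chr2:75675513-75677184. The exon 5 primers of the study match a stretch of 282 bases at chr2:75676410-75676691, which ends 897 bases before the 3′ end of the 2475-base transcript Nfe2l2-201. By real-time PCR with these primers, the study reported less Nfe2l2 mRNA in NRF2 KO than in WT livers. How far the excised part reaches toward the 3′ end is not given in the sources used here. Whether reads near the 3′ end fall in the excised part is therefore not known, and the level below is no check of the deletion. In WT Con the levels were 106, 125, 117, 324 and 118 CPM, where 324 CPM is the library labelled WT_CON_7607. In WT MR they were 107, 101, 102, 94.0 and 97.0 CPM. NRF2 KO Con ran from 228 to 339 CPM with a median of 273, and NRF2 KO MR from 202 to 249 CPM with a median of 228. Every NRF2 KO liver was above every WT liver except for that 1 library, which lay within the range of NRF2 KO Con.

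On MR, Nfe2l2 reads were 2.26-fold higher in NRF2 KO than in WT mice (log2 fold change 1.18 ± 0.22, SE, adjusted p = 0.0035 by edgeR's quasi-likelihood test), and the groups did not overlap, as for 4.6% of all genes tested. On Con the fold was 1.78 (0.83 ± 0.21, adjusted p = 0.045). Without the library labelled WT_CON_7607 the difference on Con was 1.27 ± 0.10 (adjusted p = 6.4e-09), and that on MR was 1.17 ± 0.09 (adjusted p = 3.7e-09). In the model all mice share 1 estimate of spread per gene. Of 22 fits that each left out 1 mouse, 2 kept the call on Con, those without WT_CON_7607 and without KO_CON_7622, and the others had adjusted p up to 0.13 with differences of at least 0.71. All 22 kept the call on MR.

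The diet effect on Nfe2l2 passed the test in neither genotype with edgeR and 22 mice, and passed in some other fits. The difference was −0.66 ± 0.22 for WT mice (adjusted p = 0.053) and −0.31 ± 0.20 for NRF2 KO mice (adjusted p = 0.34). Without the library labelled WT_CON_7607, Nfe2l2 fell by 0.31 on the log2 scale in NRF2 KO mice on MR (SE 0.085, adjusted p = 0.016), and the WT difference was −0.22 ± 0.10 (adjusted p = 0.17). The WT difference passed the test in the 4 fits without 1 of the other WT Con mice, which left that library in (−0.73 to −0.77, adjusted p from 0.024 to 0.048). On the same 22 mice it also passed with DESeq2 (−0.66, adjusted p = 0.019) and with only genes of at least 10 counts in every mouse (−0.68, adjusted p = 0.044), and the NRF2 KO difference passed when only its 2 groups were fitted (−0.31, adjusted p = 0.039).

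Nfe2l1, at chr11:96817414-96829968, encodes NRF1, a factor anchored in the endoplasmic reticulum that is best known for raising proteasome genes when the proteasome is blocked. Among WT mice its mean level was 61.4 ± 3.32 CPM on Con and 68.8 ± 8.53 CPM on MR (SD, n = 5 each), and among NRF2 KO mice it was 56.9 ± 5.40 CPM on Con and 56.3 ± 7.26 CPM on MR (n = 6 each). The groups overlapped in every comparison and no difference passed the test. The largest was NRF2 KO against WT on MR, at −0.29 ± 0.09 (adjusted p = 0.10). None of 8 measured genes for NRF1 processing, among them the protease gene Ddi2 and the glycanase gene Ngly1, was called in any of the 5 tests, at medians from −0.03 to 0.07. With 13.8% of all genes called for MR in WT and 12.6% in NRF2 KO mice, 0 of 8 does not set these genes apart.

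**Figure D2:**
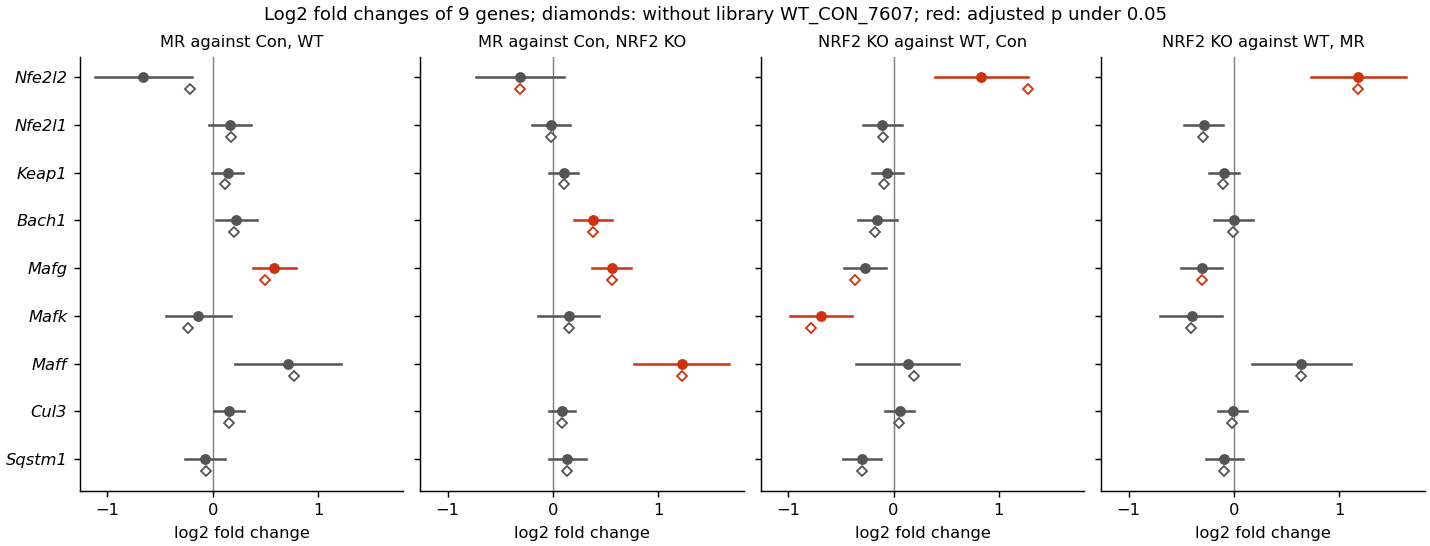
Log2 fold change (horizontal axis) of each gene in the 4 comparisons. Circles are the values from 22 mice with 95% intervals of the model, open diamonds are the values without the library labelled WT_CON_7607, and red marks an adjusted p under 0.05. The diamond of Nfe2l2 on Con lies at 1.27 and its circle at 0.83.

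The small Maf genes are shown with their promoter sequence, because antioxidant response elements are the sites that small Maf and NRF2 pairs bind. RefSeq promoters (GRCm38.p6, 250 bases before to 50 after each start, 15 promoters for the 9 genes) were searched on both strands for the element core TGACNNNGC. A match was present for Nfe2l2, Mafg, Mafk and Maff, the 4 lines that follow, and for none of the other 5 genes, against 14.0% of 27025 genes and 12.4% of 32851 promoters. The windows run 5′ to 3′ on the strand of the gene, capitals mark the match, and for Mafg and Mafk the capitals are the reverse complement of the core.
Nfe2l2, chr2:75704865-75704913, minus strand: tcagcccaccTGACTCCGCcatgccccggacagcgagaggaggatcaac
Mafg, chr11:120633731-120633797, minus strand: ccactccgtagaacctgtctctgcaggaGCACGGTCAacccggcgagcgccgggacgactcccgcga
Mafk, chr5:139791493-139791535, plus strand: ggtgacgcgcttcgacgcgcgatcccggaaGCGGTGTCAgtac
Maff, chr15:79346479-79346547, plus strand: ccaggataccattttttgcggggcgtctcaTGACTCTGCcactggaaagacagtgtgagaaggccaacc
The first base of the match lay 240 bases before the RefSeq start for Nfe2l2, 222 for Mafg, 13 for Mafk and 112 for Maff. The variant TGAGNNNGC, found in 17.6% of promoters, matched Maff and Nfe2l1, and the E-box CACGTG, found in 7.15%, matched Mafg, Mafk and Maff. Maff has RefSeq promoters 1 to 3 in order along the gene. Its TGACNNNGC match lay in promoter 1 alone, and its E-box in promoter 2. The ATF4-type letters TGATGNAAT and TGATGCAA, found in 0.965% and 0.895% of promoters, matched none of the 9 genes. A match describes these letters in this window and shows no binding.

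Mafg (ENSMUSG00000051510, chr11:120625117-120633600) gave most of the small Maf reads. Its levels in WT Con were 92.9, 99.5, 108, 67.7 and 96.6 CPM, the 67.7 CPM being the library labelled WT_CON_7607, and in WT MR they were 133, 157, 153, 129 and 125 CPM. NRF2 KO Con ran from 68.2 to 89.5 CPM with a median of 75.4, and NRF2 KO MR from 104 to 123 CPM with a median of 112. Within each genotype every MR liver was above every Con liver, which held for 9.32% of all genes tested in WT and 5.45% in NRF2 KO, counting either direction. MR raised Mafg 1.5-fold in WT mice (0.59 ± 0.10, adjusted p = 0.00042) and 1.47-fold in NRF2 KO mice (0.56 ± 0.09, adjusted p = 0.00035). Both calls were kept in all 22 fits that left out 1 mouse. The difference between these diet effects was −0.03 ± 0.13 (adjusted p = 0.98), with a 95% interval from −0.31 to 0.25.

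Between genotypes Mafg was −0.27 ± 0.10 on Con (adjusted p = 0.16) and −0.30 ± 0.09 on MR (adjusted p = 0.10), neither of which passed the test. The groups on MR did not overlap, as for 4.6% of all genes tested. Without the library labelled WT_CON_7607, Mafg was lower in NRF2 KO mice on Con, at −0.37 ± 0.08 (adjusted p = 0.013), and on MR, at −0.30 ± 0.08 (adjusted p = 0.029). On MR, where that library is in neither group, the difference also passed when only the 2 groups compared were fitted (−0.30, adjusted p = 0.024).

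Mafk (ENSMUSG00000018143, chr5:139791513-139802653) was the member that fell with loss of NRF2 on Con. Its levels in WT Con were 13.5, 15.2, 12.2, 9.32 and 15.0 CPM, the 9.32 CPM being the library labelled WT_CON_7607. NRF2 KO Con ran from 6.81 to 9.64 CPM with a median of 8.18, so that the groups overlapped through that library alone. Mafk was 0.62 of the WT level on Con (−0.69 ± 0.14, adjusted p = 0.0085), a call kept in all 22 fits that left out 1 mouse, and the difference was −0.79 ± 0.14 without that library (adjusted p = 0.0018). On MR, WT livers held 12.8, 13.7, 11.9, 10.4 and 10.2 CPM and NRF2 KO livers 6.51 to 11.8 CPM with a median of 8.86. The groups overlapped and the difference was −0.40 ± 0.14 (adjusted p = 0.16). The genotype difference on MR against that on Con was 0.29 ± 0.20 (adjusted p = 0.79), and the diet effect on Mafk was −0.14 ± 0.15 for WT mice (adjusted p = 0.60) and 0.15 ± 0.14 for NRF2 KO mice (adjusted p = 0.53).

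Circadian clock genes moved with the genotype on Con as Mafk and Nfe2l2 did. Of 16 clock genes 7 were higher and 3 lower in NRF2 KO Con, 6 and 3 without the library labelled WT_CON_7607, among them Per1, at 1.83 ± 0.30, and Arntl, at −2.13 ± 0.38. Of all genes, 0.802% were called higher and 1.27% lower in that comparison. The clock score ran from −8.42 to −2.55 in WT Con and from 0.81 to 2.61 in NRF2 KO Con, and from −3.08 to 0.76 in WT MR and 1.73 to 3.09 in NRF2 KO MR, with no overlap between the genotypes on either diet. With the score as a covariate, an alternative chosen after the data were seen, Mafk on Con was −0.60 ± 0.28 (adjusted p = 0.40) and Nfe2l2 0.54 ± 0.44 (adjusted p = 0.65), and Nfe2l2 on MR was 1.03 ± 0.29 (adjusted p = 0.13). The clock list moved with MR in WT mice as well, with 6 of 16 genes higher and 2 lower, or 4 and 2 without the library labelled WT_CON_7607. Of all genes, 6.91% were called higher and 13.8% in either direction for MR in WT mice. With the score in the model, the WT diet effect was 0.31 for Maff (adjusted p = 0.65) and 0.02 for Bach1 (adjusted p = 0.95). The calls of Mafg in both genotypes, and of Bach1 and Maff in NRF2 KO mice, were kept. Because the score separates the genotypes, clock state and genotype cannot be told apart here.

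Maff (ENSMUSG00000042622, chr15:79346621-79359076) encodes the small Maf that is known to respond to inflammatory signals and stress. In NRF2 KO Con it ran from 4.79 to 12.1 CPM with a median of 7.55, and in NRF2 KO MR from 13.7 to 25.6 CPM with a median of 16.6. The groups did not overlap, as for 5.45% of all genes tested. MR raised Maff 2.33-fold in NRF2 KO mice (1.22 ± 0.22, adjusted p = 0.00093), a call kept in all 22 fits that left out 1 mouse. In WT Con the levels were 5.92, 5.63, 6.26, 8.38 and 9.41 CPM and in WT MR 8.23, 11.8, 10, 15.8 and 13.8 CPM. These overlapped through the lowest MR mouse, and the difference was 0.72 ± 0.25 (adjusted p = 0.055). It passed in the 6 fits without WT_CON_7608, WT_MR_7609, KO_CON_7618, KO_CON_7623, KO_MR_7629 or KO_MR_7632, with adjusted p from 0.036 to 0.049. The diet effects differed between genotypes by 0.51 ± 0.33 (95% interval −0.17 to 1.18, adjusted p = 0.76), so a larger response in NRF2 KO mice was not shown. Maff and Mafk had the fewest reads of the 9 genes, Maff from 68 to 499 and Mafk from 69 to 358 counts per library.

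Some immediate early genes rose with MR in NRF2 KO mice, as Maff did. Of 13 measured, 4 rose, 1 fell and 8 were not called, beside 6.23% of all genes called higher and 12.6% called in either direction. Egr1, at 2.61 ± 0.41, and Ier3, at 0.81 ± 0.19, were among those that rose, and Dusp1 fell, at −0.68 ± 0.21. In WT mice, where the Maff difference of 0.72 was not called, 3 of the 13 fell on MR and none rose. Without the library labelled WT_CON_7607, 2 fell. Of all genes, 13.8% were called for MR in WT mice. The diet effect on Egr1 and Junb differed between the genotypes, at 3.77 ± 0.62 (adjusted p = 0.023) and 1.24 ± 0.18 (adjusted p = 0.002). Of all genes, 0.045% were called in that test. The part of immediate early genes in the Maff result was not tested.

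The 3 small Maf genes together gave 113 ± 16.2 CPM on Con and 163 ± 14.6 CPM on MR in WT mice (SD, n = 5 each), and 93.0 ± 9.45 CPM on Con and 141 ± 10 CPM on MR in NRF2 KO mice (n = 6 each). As shares of small Maf reads, which are not shares of protein, Mafg held between 75.1% and 87.5% in every liver. The Mafk share was 9.68% to 12.6% in WT Con and 6.69% to 8.30% in WT MR, without overlap. The Maff share was 5.46% to 11% in NRF2 KO Con and 10.2% to 17.0% in NRF2 KO MR, and these overlapped. The shares rest on 929 to 3506 small Maf reads per library and were not tested.

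**Figure D3:**
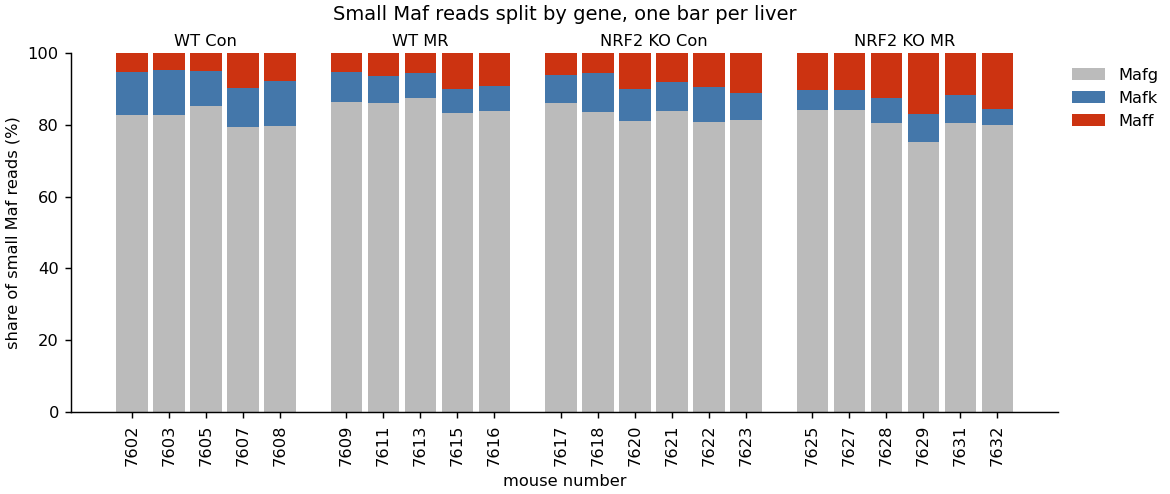
Share of small Maf reads (vertical axis, percent, from 0 to 100) from Mafg, Mafk and Maff in each of 22 livers, 1 bar per mouse and grouped by genotype and diet. Mafg fills between 75.1% and 87.5% of every bar, and the top segment, Maff, is longest in NRF2 KO MR, at up to 17.0%.

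Bach1 (ENSMUSG00000025612, chr16:87698945-87733346) encodes the heme-sensing repressor that competes with NRF2 for small Mafs. It ran from 18.2 to 26.4 CPM in NRF2 KO Con with a median of 22.8, and from 26.7 to 31.8 CPM in NRF2 KO MR with a median of 30.5. These groups did not overlap, as for 5.45% of all genes tested. MR raised Bach1 1.30-fold in NRF2 KO mice (0.38 ± 0.09, adjusted p = 0.0049), a call kept in all 22 fits that left out 1 mouse. In WT Con the levels were 21.3, 24.9, 27.9, 23.9 and 29.4 CPM and in WT MR 28.0, 29.7, 31.2, 30.6 and 30 CPM. Only the highest WT Con liver was within the MR range, and the difference was 0.23 ± 0.09 (adjusted p = 0.11). The diet effects differed by 0.15 ± 0.13 (95% interval −0.11 to 0.42, adjusted p = 0.83). Between genotypes Bach1 was −0.16 ± 0.09 on Con (adjusted p = 0.45) and −0.003 ± 0.09 on MR (adjusted p = 1).

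Keap1 and Cul3, the substrate adaptor and the scaffold of the ligase that removes NRF2, had no difference that passed the test. Keap1 (chr9:21229730-21239361) averaged 90.1 ± 7.28 CPM on Con and 99.4 ± 4.32 CPM on MR in WT mice, and 86.5 ± 6.41 and 92.8 ± 7.17 CPM in NRF2 KO mice (SD, n = 5 in each WT and 6 in each NRF2 KO group). Cul3 (chr1:80264923-80340480) averaged 50.6 ± 2.35, 56.3 ± 4.71, 52.7 ± 3.46 and 55.9 ± 2.75 CPM in the same order of groups. Their log2 differences in the 4 comparisons lay between −0.10 and 0.16, with 95% intervals that stayed within −0.24 and 0.30. When counts were scaled by library size alone, the median difference of all genes for MR in NRF2 KO mice moved to 0.15, and beside that shift Keap1, at 0.26, Cul3, at 0.24, and Sqstm1, at 0.29, passed the test with adjusted p of 0.02, 0.027 and 0.035.

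Sqstm1 (ENSMUSG00000015837, chr11:50199366-50210827) encodes p62, an autophagy receptor whose gene is also a known NRF2 target. In WT Con it read 332, 321, 275, 320 and 348 CPM, and in NRF2 KO Con 228 to 297 CPM with a median of 264. The groups overlapped through the lowest WT liver, and the difference was −0.30 ± 0.09 (adjusted p = 0.079). DESeq2 put the same difference at −0.30 with an adjusted p of 0.022, and edgeR gave −0.35 without WT_CON_7605 (adjusted p = 0.035) and −0.34 without KO_CON_7622 (adjusted p = 0.047). The difference on MR was −0.09 ± 0.09 (adjusted p = 0.72), and the diet effects were −0.07 ± 0.09 for WT (adjusted p = 0.66) and 0.14 ± 0.08 for NRF2 KO mice (adjusted p = 0.31). The mice left out stood far from these levels, at 747 CPM for WT_CON_7604 and 434 CPM for WT_MR_7612.

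The test of whether the MR effect differed between genotypes called 0 of the 9 genes with edgeR, beside 0.045% of all genes. With DESeq2 it called 0 of the 9, beside 35 of 13336 genes. An unadjusted p under 0.05 with edgeR was found for 0 of the 9, beside 1008 of 13336 genes. At shares this low, 0 of 9 does not show that the diet effects were alike. The 95% intervals were widest for Maff and Nfe2l2, where they ran from −0.17 to 1.18 and from −0.28 to 0.96.

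Some of the genes that act on NRF2 protein were called in the diet comparisons, and none in the genotype comparisons. The all-gene shares to read the diet counts against are 13.8% for MR in WT and 12.6% for MR in NRF2 KO mice. With lists of 15 to 19 genes, the diet counts below do not set these genes apart from all genes. For NRF2 KO against WT the shares are 2.07% on Con and 1.93% on MR. At shares this low, 0 calls in 3 lists of 15 to 19 genes do not set these genes apart. Of 16 measured genes for NRF2 turnover, other than Keap1 and Cul3, 1 was called in the 5 tests, Syvn1, which encodes the ubiquitin ligase HRD1 and rose by 0.55 ± 0.18 on MR in NRF2 KO mice (adjusted p = 0.047), a call lost without the library labelled WT_CON_7607. Of 19 measured partners of KEAP1 and p62, MR raised 1 and lowered 2 in WT mice, and raised 2 and lowered 1 in NRF2 KO mice. Without that library it lowered 1 in WT and 2 in NRF2 KO mice. Map1lc3b, an autophagosome protein that p62 binds, rose in both, by 0.46 ± 0.10 for WT (adjusted p = 0.0047) and 0.29 ± 0.10 for NRF2 KO mice (adjusted p = 0.047). Cdkn1a, which encodes the cell cycle inhibitor p21, fell by 2.06 on the log2 scale in WT mice (SE 0.43, adjusted p = 0.0035). Of 15 coactivators and kinases of NRF2, MR raised Mapk8 and lowered Rara in WT mice, and raised Eif2ak3, which encodes the stress kinase PERK, by 0.94 ± 0.19 in NRF2 KO mice (adjusted p = 0.0027). The 3 lists had 0 genes called between genotypes on either diet with 22 mice.

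Other CNC and bZIP factors, which share partners or sites with NRF2, held 11 measured genes. The all-gene shares called for MR, in either direction, are 13.8% in WT and 12.6% in NRF2 KO mice. On MR in NRF2 KO mice 3 rose and 1 fell, including Nfe2 at 1.22 ± 0.30 (adjusted p = 0.0093) and Bach2, a relative of Bach1, at −0.78 ± 0.22 (adjusted p = 0.025). In WT mice MR lowered 2, Junb at −0.69 ± 0.13 (adjusted p = 0.0012) and Fos, which averaged under 1 CPM and was named after its values were seen. The median of the list was −0.21 in WT and 0.12 in NRF2 KO mice, beside medians of −0.006 and −0.004 over all genes. With the library labelled WT_CON_7607 left out, 1 of the 11 genes was lower in WT mice and the median was −0.11.

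Many listed NRF2 target genes were lower in NRF2 KO mice or higher on MR, while Nfe2l2 reads were higher in NRF2 KO mice. Of 33 listed targets, MR raised 22 in WT mice (median 0.64) and raised 14 and lowered 1 in NRF2 KO mice (median 0.48). Of all genes, 6.91% and 6.23% were called higher in these comparisons. In NRF2 KO against WT mice 12 were lower on Con (median −0.41) and 20 were lower on MR (median −1.02), and none was higher. Of all genes, 1.27% were called lower on Con, and 1.93% were called in either direction on MR. Not called were 11 and 18 targets for MR in WT and NRF2 KO mice, and 21 and 13 for NRF2 KO against WT on Con and MR. Abcc4, an efflux pump, rose by 3.22 ± 0.26 on MR in WT mice and was the 1 target whose MR effect differed between genotypes, at −2.60 ± 0.35 (adjusted p = 0.002). With all 24 mice, 0 of the 33 targets were called in that test. Slc7a11, the cystine transporter, was at most 0.152 CPM in every WT Con liver and from 2.85 to 16.3 CPM in WT MR. Gsta2, a glutathione transferase with close paralogs that may share its reads, rose by 2.89 ± 0.38 on MR in WT and 2.60 ± 0.41 in NRF2 KO mice. Without the library labelled WT_CON_7607 the counts were 20 raised in WT, 17 raised and 1 lowered in NRF2 KO, and 14 and 22 lower in NRF2 KO mice on Con and MR. The mean log2 level of the targets ran from 6.84 to 7.04 in WT MR and from 5.54 to 5.95 in NRF2 KO MR, without overlap.

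**Figure D4:**
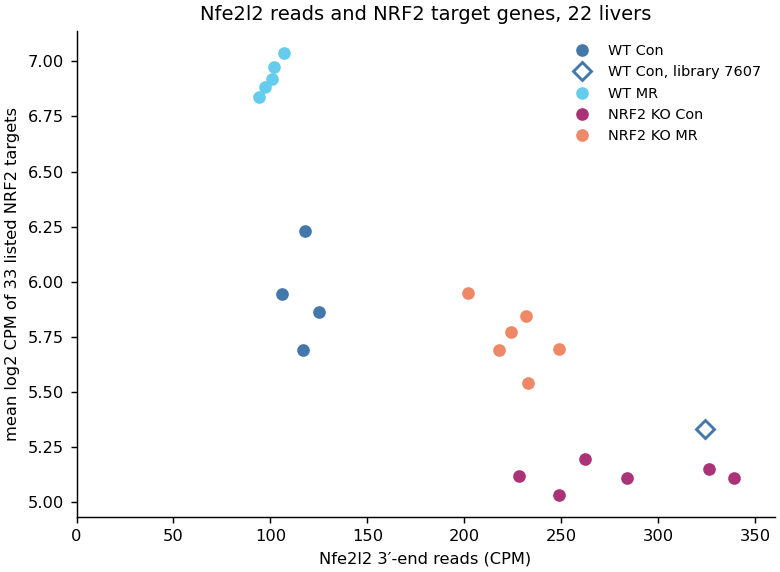
Nfe2l2 3′ reads (CPM, horizontal axis) against the mean log2 CPM of 33 listed NRF2 target genes (vertical axis, which does not start at 0) in 22 livers. WT MR livers lie highest, between 6.84 and 7.04, NRF2 KO Con livers lowest, between 5.03 and 5.20, and the open diamond, the library labelled WT_CON_7607, lies at 324 CPM and 5.33.

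Some markers of liver cell types moved with MR, beside the rises of Mafg, Bach1 and Maff. The all-gene shares called for MR, in either direction, are 13.8% in WT and 12.6% in NRF2 KO mice. Of 11 Kupffer cell markers, all measured, MR lowered 7 in WT and 4 in NRF2 KO mice, and their summed level ran from 508 to 668.5 CPM in WT Con, 399.1 to 450 in WT MR, 434.8 to 654.5 in NRF2 KO Con and 376.6 to 502.1 in NRF2 KO MR. Of 10 stellate cell markers MR lowered 5 and 4, with summed levels from 451.2 to 744.9 CPM in WT Con, 393.8 to 498.3 in WT MR, 514.7 to 599.2 in NRF2 KO Con and 431.2 to 557.3 in NRF2 KO MR. Of 5 measured bile duct markers MR lowered 4 and 1, while Cftr and Muc1 were filtered out as too low. Of 9 endothelial markers MR changed 0 in WT (median −0.02) and raised 1, Kdr, in NRF2 KO mice, and of 7 measured lymphocyte markers it changed 0 in either. Of 12 hepatocyte markers MR lowered 1 in WT and 2 in NRF2 KO mice, and of 5 measured red blood cell markers 1 in each. Of 3 measured neutrophil markers it lowered 1 in WT and 0 in NRF2 KO mice. Without the library labelled WT_CON_7607, MR in WT lowered 6 Kupffer, 4 stellate cell and 0 neutrophil markers. Between genotypes the bile duct marker Spp1 was lower in NRF2 KO mice on Con (−0.90 ± 0.22, adjusted p = 0.03), the hepatocyte gene Apoa1 was higher on MR (0.50 ± 0.09, adjusted p = 0.0025), and 0 Kupffer, stellate, endothelial, lymphocyte or neutrophil markers were called with 22 mice. Without that library 1 endothelial marker was higher on Con. Of all genes, 2.07% were called between genotypes on Con and 1.93% on MR with 22 mice. The part of liver cell types in the results was not tested.

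The genes whose log2 level was most like that of each member were found by Pearson's r over the 22 mice, which share the groups, so that r includes the group differences. For Nfe2l2 they were Tomm40l (r = 0.90), Them4 (0.85) and Dnaja4 (0.82). For Mafg they were Gch1 (0.92), Cth (0.91) and Rplp1 (0.91), for Mafk Ppfibp2 (0.79), Cetn2 (0.79) and Tifa (0.78), and for Maff Slc22a26 (0.87), Sik1 (0.86) and Fam104a (0.83). Bach1 was most like Slc6a6 (0.85), Slc39a4 (0.84) and Ccl9 (0.83), and Sqstm1 most like the keratin genes Krt8 (0.88) and Krt18 (0.81) and Dhrs9 (0.80). Keap1, with Rexo2 (0.78), Prkca (0.76) and Kdf1 (0.76), Nfe2l1, with Slc4a4 (0.81) and Ak6 (0.79), and Cul3, with Samd8 (0.75), Gnpat (0.74) and Wac (0.73), completed the set. No member was among the closest genes of another.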

How the data were processed

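The authors deposited raw counts of 3′ reads on each gene, made with the library maker's QuantSeq pipeline. The aligner is not given in the sources used here, and the submitters' notes name GRCm38, R 3.4.3 and DESeq2 1.18.1. The deposited signal holds the same counts divided by 1 size factor per mouse and served 1 alternative. Symbols came from the deposited table and positions from GENCODE M21 on GRCm38.

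Counts of 22 mice, each 1 library from a separate animal, were fitted in R 4.3.3 with edgeR 4.0.16 (TMM, filter by expression, robust quasi-likelihood F-tests, a mean per group). The filter kept 13336 of 15160 genes. Comparisons were MR against Con within genotype, NRF2 KO against WT within diet, and their interaction. P-values were adjusted over all genes tested by Benjamini-Hochberg, and a gene was called under 0.05. The prior count for log2 CPM was 2. Totals ran from 6197291 to 22068338 counts, and errors are SD between mice or SE of the model. No batch was given. On simulated data with 13192 genes, of which 200 were changed, the fit of MR in WT called 47 of 68 genes changed 1.5-fold and 62 of 65 changed 2-fold.

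The members, lists and tests were chosen with earlier results of these data known. All 9 members are named, with up to 3 called genes per list and comparison of largest change and at least 1 CPM, and the 3 genes most like each member. Of the genes most like a member, 1 is not reported here. Genes outside these rules are marked. Alternatives were other scalings and filters, DESeq2 1.42.0, limma 3.58.1 on the deposited normalized signal, the compared groups alone, all 24 mice with and without quality weights, each mouse left out, and, added after the data were seen, a clock score as covariate. Promoters came from RefSeq (GRCm38.p6). Figures used matplotlib 3.10.9 in Python 3.11.15.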

Additional observations from a re-analysis of the deposited data

Results flagged for a closer look

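In 1 of 36 sets of 5 or 6 mice, 9 genes in 4 groups, 1 mouse lay far from the rest by Dixon's criterion at the 95% level, which chance alone exceeds in about 1 of 20 sets. This was Nfe2l2 in the library labelled WT_CON_7607, at 324 CPM against 125 CPM for the next WT Con mouse. In the 2 mice left out of the comparisons, 5 values lay outside the range of the 22 mice kept. In WT_CON_7604 Mafk stood at 20.5 CPM (highest of the 22, 15.2) and Sqstm1 at 747 CPM (highest, 348). In WT_MR_7612 Sqstm1 stood at 434 CPM, Bach1 at 33.3 CPM (highest, 31.8) and Cul3 at 61.4 CPM (highest, 60.5).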

How the results depend on the processing

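No paired analysis was possible because the mouse numbers are not shared between groups. Leaving out each mouse in turn, the number of the 9 genes called ran from 1 to 3 for MR in WT, 3 to 4 for MR in NRF2 KO, 1 to 3 for NRF2 KO on Con, 1 to 2 for NRF2 KO on MR and 0 to 0 for the interaction. For MR in WT, 1 with 22 mice, the count was 3 with library size alone and with DESeq2, and 2 with at least 10 counts in every mouse, limma, only the 2 groups compared, and all 24 mice without and with quality weights. The added calls were Nfe2l2, Maff or Bach1. For MR in NRF2 KO library size alone gave 6 and only the 2 groups compared gave 4, with Nfe2l2 added, against 3. For NRF2 KO on Con the count was 1 with library size alone, no filter, and only the 2 groups compared, each time without Nfe2l2, and 0 with the clock score. For NRF2 KO on MR it was 2 with only the 2 groups compared, with Mafg added, and 0 with the clock score. Library size alone moved the median of all genes to 0.087 for MR in WT and 0.152 for MR in NRF2 KO. Only values that were not called with 22 mice changed sign. Sqstm1 in WT on MR became 0.011 with library size alone and 0.073 with the clock score, and Nfe2l1 in NRF2 KO on MR 0.147 with library size alone. On Con, the genotype difference of Maff became -0.085 with all 24 mice, -0.089 with quality weights and -0.47 with the clock score, and that of Keap1 0.148 with the clock score. On MR, that of Bach1 became 0.03 with library size alone, 0.002 with at least 10 counts and 0 with only the 2 groups, that of Cul3 0.023 with library size alone, 0.003 with quality weights and 0.014 with the clock score, and with the clock score Keap1 became 0.002 and Sqstm1 0.017. The interaction of Keap1 became 0.022 and that of Mafg 0.023 with library size alone, and Mafg 0.077 with all 24 mice. Leaving out each mouse, sign changes came in Nfe2l1 in NRF2 KO on MR (-0.066 to 0.027), Maff on Con (-0.021 to 0.264), Bach1 (-0.027 to 0.028) and Cul3 (-0.058 to 0.013) on MR, and the interactions of Nfe2l2 (-0.099 to 0.465), Keap1 (-0.07 to 0.001) and Mafg (-0.08 to 0.061). The causes were not tested. In simulated data with the spread between these mice, changes of 1.5-fold were recovered less often than those of 2-fold, so smaller differences can be missed. Only 200 genes were changed there, fewer than the 1843 called for MR in WT. The recovery rates therefore do not carry over to the comparisons made here.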
